A study of Mus musculus with 24 samples.

Results

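The transcripts described here are the 10 genes of the constant regions of immunoglobulins and of the J chain that were looked up by symbol in the table of 54752 genes. They comprise the heavy chain genes Ighm, Ighd, Igha, Ighg1, Ighg2b, Ighg2c and Ighg3, the light chain genes Igkc and Iglc1, and Jchain. All 10 had more than 1 TPM, the transcript level per library scaled to a fixed sum, in at least 1 library, the limit for being tested. RNA came from bone marrow cells of 24 male C57BL/6 mice. Wild-type (WT) mice and Nrf2-KO mice, which carry a germline disruption of Nfe2l2 and so lack this regulator of antioxidant genes in all cells, either flew on the International Space Station for 31 days or stayed in matched single cages on the ground. The 4 groups of 6 mice are ground control WT (GC-WT), flight WT (FL-WT), ground control Nrf2-KO (GC-KO) and flight Nrf2-KO (FL-KO), with a library from each mouse. The flight mice were 8 weeks old when shipped to the launch site, and the age of the ground mice is not given in the sources used here. After landing, flight mice were examined on the US West Coast and ground mice in Japan. Flight, the return to the ground and the place of sampling therefore cannot be told apart. Below, "in flight" names the flight groups, which were sampled after landing and not in space. All cells had been frozen before RNA was taken, and frozen cells with the erythroid marker Ter119 survived poorly.

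A B cell joins a variable region to the constant region of IgM and IgD first, and can later switch the same variable region to the constant region of IgG or IgA. A light chain, kappa or lambda, pairs with each heavy chain, and most murine B cells use kappa. In plasma cells, which are long-lived in bone marrow, the heavy chain RNA is processed to a secreted form, and the J chain links IgM or IgA units into polymers that epithelia can transport.

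The coding ends of the secreted forms are printed because they show which of these heavy chains can bind the J chain. Each line gives the last coding bases and the stop codon of a transcript of GENCODE M21 on GRCm38, 5′ to 3′, all on the minus strand and each within a single exon. Capitals mark a cysteine codon directly before the last codon, at which J chain binds IgM and IgA. The ends lie at chr12:113420867-113420929 (Ighm), chr12:113258768-113258830 (Igha), chr12:113328976-113329038 (Ighg1) and chr12:113306389-113306451 (Ighg2b).
Ighm: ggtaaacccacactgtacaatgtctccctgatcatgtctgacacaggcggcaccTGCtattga
Igha: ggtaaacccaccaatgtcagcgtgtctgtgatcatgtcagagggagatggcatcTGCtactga
Ighg1: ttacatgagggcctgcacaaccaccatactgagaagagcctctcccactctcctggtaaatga
Ighg2b: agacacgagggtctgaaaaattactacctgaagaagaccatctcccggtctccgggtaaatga

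The tails of Ighm and Igha hold this codon, and those of Ighg1 and Ighg2b do not. Each heavy chain gene also has a transcript with another end for the membrane form, and a value per gene does not separate the secreted from the membrane RNA. All 7 heavy chain genes lie on the minus strand of chromosome 12, in the order Ighm (113418558 to 113422730), Ighd (113406604 to 113416324), Ighg3 (113356224 to 113361232), Ighg1 (113325240 to 113330523), Ighg2b (113302965 to 113307933), Ighg2c (113285325 to 113288932) and Igha (113254830 to 113260236). Igkc has a single exon on chromosome 6 (70726435 to 70726966, plus strand), Iglc1 a single annotated exon on chromosome 16 (19061618 to 19062071, minus strand), and Jchain lies on chromosome 5 (88519809 to 88527891, minus strand).

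Constant region genes resemble each other, which bears on how reads were assigned. The coding ends of the 3 lambda genes are printed to show this, at chr16:19061752-19061814 (Iglc1), chr16:19198536-19198598 (Iglc2) and chr16:19065365-19065427 (Iglc3), from the same annotation and strand, with capitals at each base that differs from Iglc1.
Iglc1: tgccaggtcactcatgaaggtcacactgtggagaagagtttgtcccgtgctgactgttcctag
Iglc2: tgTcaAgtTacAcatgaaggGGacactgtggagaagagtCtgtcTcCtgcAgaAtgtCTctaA
Iglc3: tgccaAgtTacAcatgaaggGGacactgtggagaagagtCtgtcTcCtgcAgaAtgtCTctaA

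Iglc2 and Iglc3 differed from each other at 1 of the 63 bases, and from Iglc1 at 14 and 13. Of all windows of 50 bases in the annotated transcripts, 0% were shared with another gene for Ighm, Ighd, Igha, Igkc, Iglc1 and Jchain. The 4 IgG genes shared 0.4% (Ighg1), 4.1% (Ighg2b), 5.5% (Ighg2c) and 1.6% (Ighg3) of their windows with each other. No window of 100 bases was shared by any of the 10 genes. The read length is not given in the sources used here, so how far shared windows affect the IgG values is not known. The windows do not cover other limits of these values, such as their low level.

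Nfe2l2, the disrupted gene, averaged 21.3 TPM in GC-WT mice against 4.97 TPM in GC-KO mice, and 18.6 TPM in FL-WT mice against 3.06 TPM in FL-KO mice. Neither setting had a Nrf2-KO mouse at or above a WT mouse (rank sum, exact permutation p = 0.00216 in both, which is the lowest value possible with 6 mice a side). Most genes had lower TPM in the flight or Nrf2-KO group. The median log2 fold change of the 12373 tested genes was -0.24 after flight in WT mice, -0.29 after flight in Nrf2-KO mice, -0.22 between genotypes on the ground and -0.25 between genotypes in flight, and a change relative to this median is given for the members that were called. Of the markers of liver, muscle and skin, 2 of 3 were at 0 throughout and the sum reached at most 0.0600 TPM, while markers of neutrophils, erythroid cells and B cells were present in every library. Sequencing depth is unknown, as no read counts are given.

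The order of the genes by mean TPM, a unit that takes transcript length into account, was much the same in the 4 groups. Igkc came first, followed by Ighm, Jchain, Iglc1, Ighd and Igha, and then by the 4 IgG genes, with Ighg3 and Ighg1 last. Ighm lay above Jchain in all 24 mice. The ranges of Jchain and Iglc1 overlapped in every group, as did those of IgG genes next to each other in this order. Within a mouse, Ighg2b nevertheless lay above Ighg3 in all 6 mice of the GC-WT, GC-KO and FL-KO groups. Together the 10 genes held 0.0993% to 0.278% of TPM in GC-WT, 0.067% to 0.223% in FL-WT, 0.0854% to 0.152% in GC-KO and 0.071% to 0.107% in FL-KO mice.

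**Figure D1:**
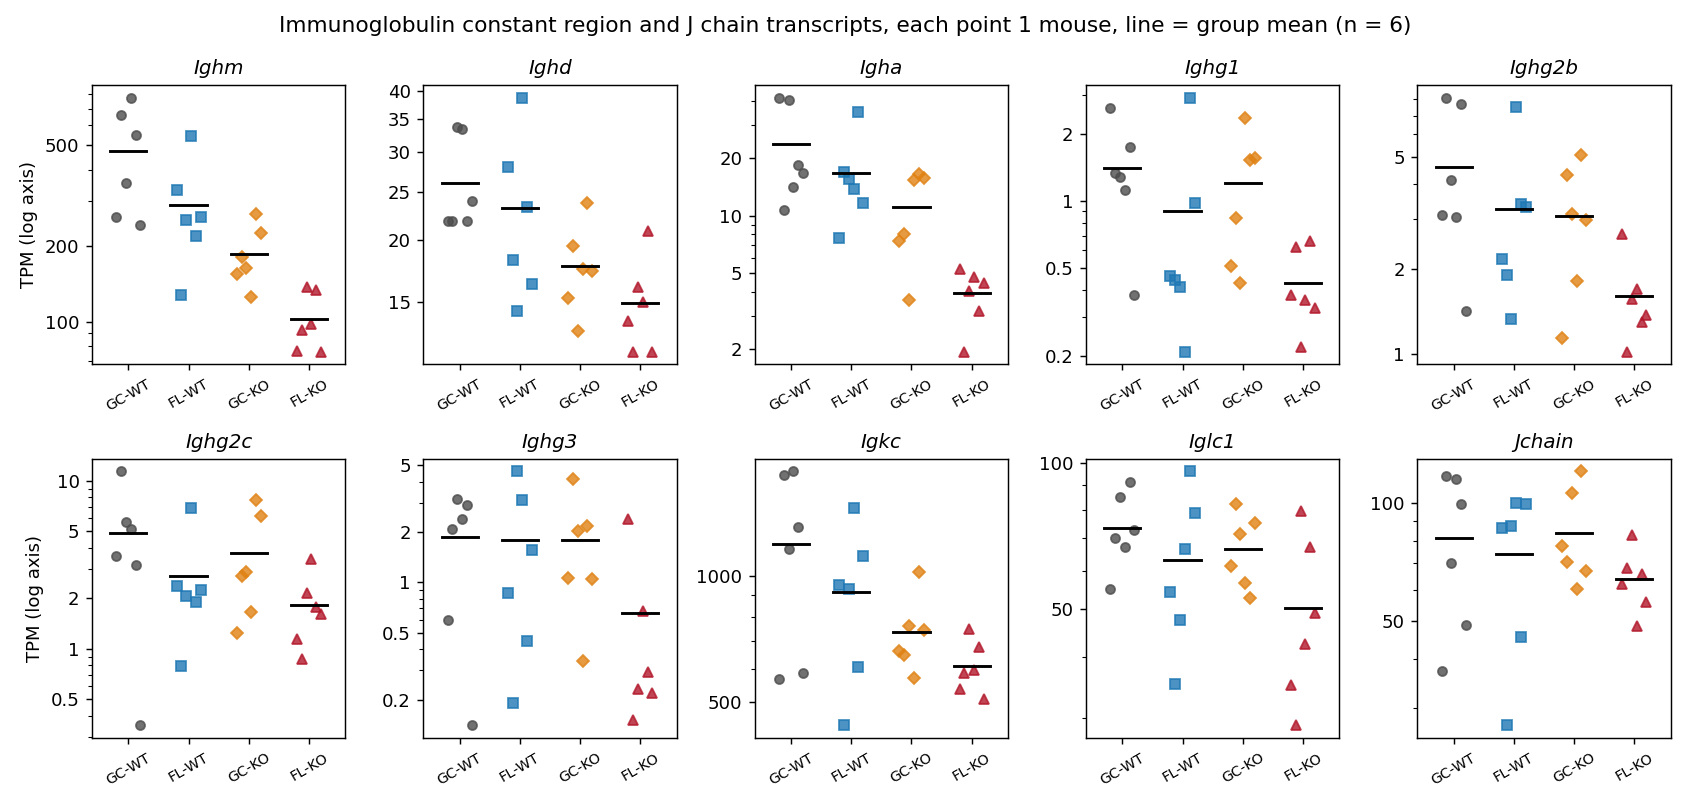
TPM of each of the 10 genes on a log axis, with 1 point for each mouse and a line at the mean of the 6 mice of a group. Igha in FL-KO mice, at 1.94 to 5.29 TPM, lies below every WT mouse, whereas the groups overlap widely for Jchain and Iglc1.

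Ighm, the constant region of IgM and of the first antigen receptor of a B cell, was lower in Nrf2-KO mice than in WT mice. In GC-WT mice it ranged from 241 to 774 TPM with a median of 453, and in GC-KO mice from 125 to 266 TPM with a median of 171. In flight it ranged from 128 to 547 TPM with a median of 257 in FL-WT mice, and from 75.9 to 137 TPM with a median of 95.0 in FL-KO mice. On the ground 5 of 6 GC-KO mice lay below all GC-WT mice, and in flight 4 of 6 FL-KO mice lay below all FL-WT mice, so the genotypes overlapped slightly in both settings. The log2 fold change between genotypes was -1.25 ± 0.29 on the ground (SE, n = 6 against 6; adjusted p = 0.00153, limma) and -1.40 ± 0.29 in flight (adjusted p = 0.000272, limma). Relative to the median of all genes these were -1.03 and -1.15.

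Ighm was also lower after flight, but by less than 2-fold. The log2 fold change after flight was -0.70 ± 0.29 in WT mice (SE, n = 6 against 6; adjusted p = 0.066, limma) and -0.85 ± 0.29 in Nrf2-KO mice (adjusted p = 0.0217, limma). Genes were called at an adjusted p under 0.1 together with a change of 2-fold or more, so neither was called. In the WT mice 2 of 6 flight mice lay below all ground mice, and in the Nrf2-KO mice 4 of 6 did. With median-of-ratios scaling the change was -0.32 in WT mice (adjusted p = 0.367, limma) and -0.40 in Nrf2-KO mice (adjusted p = 0.223, limma).

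Igha, the constant region of IgA, had the lowest log2 fold change of the members in FL-KO vs. FL-WT and after flight in Nrf2-KO mice. It ranged from 10.8 to 41.7 TPM with a median of 17.6 in GC-WT mice and from 7.66 to 35.0 TPM with a median of 14.8 in FL-WT mice. In GC-KO mice it ranged from 3.61 to 16.5 TPM with a median of 11.8, and in FL-KO mice from 1.94 to 5.29 TPM with a median of 4.25. All 6 FL-KO mice were below all 6 FL-WT mice, a separation that 20.6% of tested genes showed in this direction. The log2 fold change in FL-KO vs. FL-WT was -1.75 ± 0.34 (SE, n = 6 against 6), with an adjusted p of 0.000157 in limma, and -1.50 relative to all genes.

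Within the Nrf2-KO mice, Igha fell after flight by 1.18 ± 0.34 (SE) on the log2 scale (adjusted p = 0.00882, limma), or -0.90 relative to all genes, with 5 of 6 GC-KO mice above all FL-KO mice. In the WT mice the difference was -0.44 ± 0.34 (SE), with an adjusted p of 0.322 in limma. The difference between these changes, tested as the interaction of flight and genotype, was -0.75 ± 0.48 (SE) with an adjusted p of 1 in limma (unadjusted p = 0.133), so a larger change in Nrf2-KO mice was not shown. On the ground, Igha was lower in Nrf2-KO mice by 1.0 ± 0.34 (SE) on the log2 scale, with an adjusted p of 0.0218 in limma, or -0.78 relative to all genes. GC-WT mice 03 and 06, at 41.7 and 40.5 TPM, stood above the other 4, which lay between 10.8 and 18.5 TPM. Without mouse 03 the log2 fold change was -0.81 (adjusted p = 0.0637, limma) and without mouse 06 -0.82 (adjusted p = 0.0724, limma), both under 2-fold. It was also under 2-fold without GC-KO mouse 01 (-0.92), 02 (-0.95) or 04 (-0.75).

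Ighm and Igha were the members called in any comparison. After flight in WT mice 0 of 10 members were called in limma, where 0.938% of tested genes were called lower, and 1 member, Ighm, was lower at an unadjusted p under 0.05 against 41.7% of all genes. After flight in Nrf2-KO mice 1 of 10 was called against a background of 2.13%, and 4 were lower at an unadjusted p under 0.05 against 52.2%. Between genotypes on the ground 2 of 10 were called against 3.04%, and 4 were lower at the unadjusted threshold against 43.4%. Between genotypes in flight 2 of 10 were called against 8.36%, and 3 were lower at the unadjusted threshold against 47.3%. For the interaction 0 of 10 were called in limma against 0.0162%, and 0 were lower at the unadjusted threshold against 3.03%. The median of the 10 log2 fold changes was -0.36 and -0.58 after flight in WT and Nrf2-KO mice, and -0.31 and -0.52 between genotypes on the ground and in flight. These comparisons share groups of mice and are set side by side only.

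The calls depended on the scaling between libraries. Median-of-ratios scaling brought the medians of all tested genes to between -0.00 and 0.03, and Igha between genotypes in flight was then the only call left. The change of Igha after flight in Nrf2-KO mice was then -0.81 (adjusted p = 0.0825, limma), and between genotypes on the ground Ighm changed by -0.91 (adjusted p = 0.00494, limma) and Igha by -0.69 (adjusted p = 0.109, limma). Between genotypes in flight Ighm stood at -1.0 (adjusted p = 0.00169, limma), just short of 2-fold. Of all called genes, those lower after flight in WT mice went from 93.5% to 40.5% with this scaling, those lower after flight in Nrf2-KO mice from all of them to 73.3%, and those lower between genotypes on the ground from 95.9% to 69.3%. Between genotypes in flight the share of calls that were lower changed little, from 98.9% to 94.3%.

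**Figure D2:**
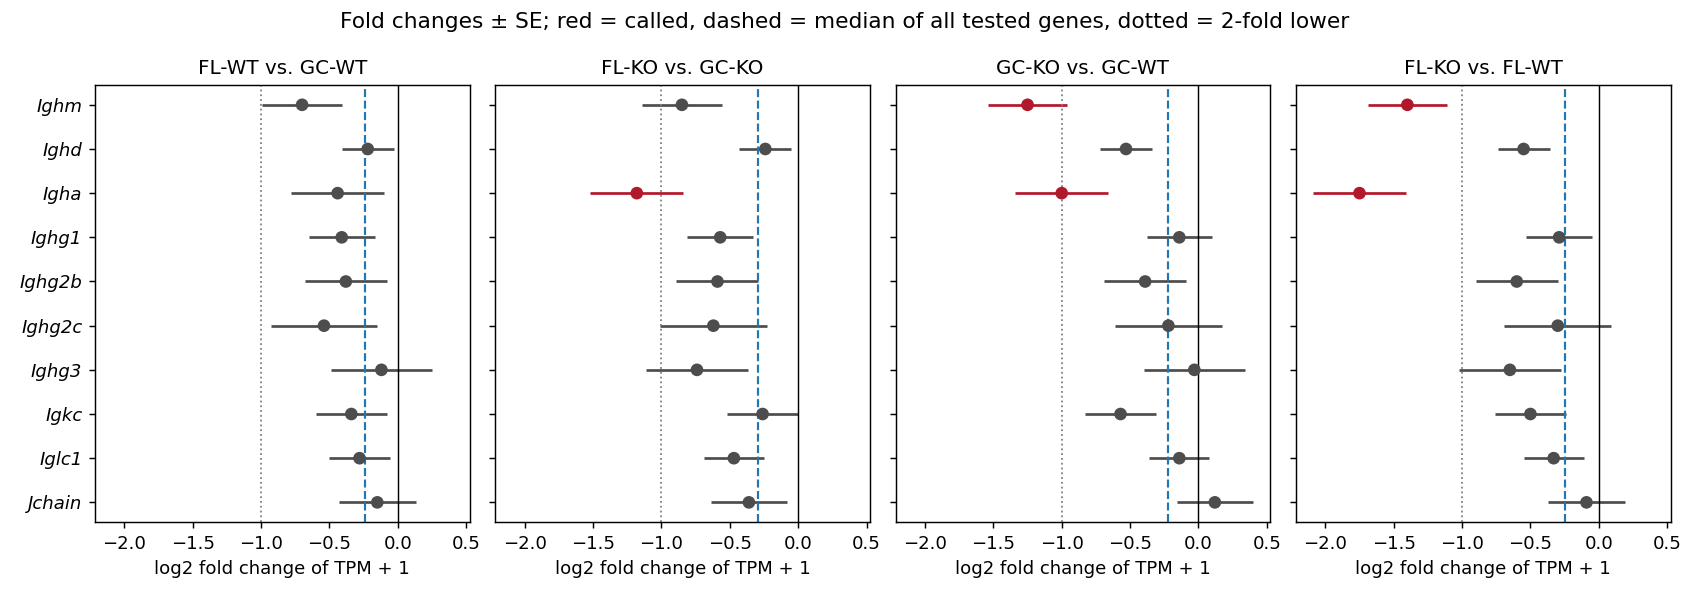
Log2 fold change of TPM + 1 of each gene with its SE in 4 comparisons of 6 mice against 6, with called genes in red, the median of all tested genes as a dashed line and a 2-fold lower level as a dotted line. In both comparisons of genotype Ighm and Igha lie furthest to the left, and Jchain in GC-KO vs. GC-WT, at 0.12, is the only point above 0.

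Ighd, which shares the variable region and the primary transcript of Ighm in mature B cells, was lower by less than Ighm. Its mean was 26.1 ± 5.85 TPM and 23.1 ± 9.12 TPM in GC-WT and FL-WT mice, and 17.7 ± 3.64 TPM and 14.9 ± 3.34 TPM in GC-KO and FL-KO mice (SD, n = 6 each). The groups overlapped in all 4 comparisons. The log2 fold change between genotypes was -0.53 ± 0.19 (SE) on the ground, with an adjusted p of 0.0301 in limma, and -0.55 ± 0.19 (SE) in flight, with an adjusted p of 0.0209 in limma, both under 2-fold. After flight it was -0.22 in WT and -0.24 in Nrf2-KO mice, near the median of all genes, and with median-of-ratios scaling these turned to 0.15 and 0.19.

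The 4 IgG genes were the lowest members, and none was called in any comparison in limma. Ighg2c, an IgG2 form of C57BL/6 mice, averaged 4.89 TPM and 2.72 TPM in GC-WT and FL-WT mice, and 3.72 TPM and 1.82 TPM in GC-KO and FL-KO mice, and in GC-WT mice alone it ran from 0.350 to 11.4 TPM. Ighg2b averaged 4.59, 3.27, 3.08 and 1.6 TPM in the same order of groups. Ighg1 lay between 0.428 and 1.42 TPM and Ighg3 between 0.662 and 1.88 TPM in mean. The mean of Ighg3 was lowest in FL-KO mice, although mouse 01 at 2.40 TPM raised it. The other 5 lay between 0.150 and 0.680 TPM, and the group median was 0.260 TPM. Their log2 fold changes ran from -0.74 to -0.03, and median-of-ratios scaling turned the sign for Ighg3 after flight in WT mice (0.10) and, between genotypes on the ground, for Ighg1 (0.01), Ighg2c (0.02) and Ighg3 (0.19). The only one with an unadjusted p under 0.05 was that of Ighg1 after flight in Nrf2-KO mice, at -0.57 ± 0.24 (SE) with an adjusted p of 0.0588 in limma. Adding 1 to TPM shrinks changes at this level, and with 0.1 added instead, Ighg1 (-1.16, adjusted p = 0.0424, limma) and Ighg3 (-1.54, adjusted p = 0.0756, limma) were called there.

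Igkc, the constant region of the kappa light chain, was the most abundant member, and its fold changes were smaller than those of Ighm. It ranged from 569 to 1769 TPM with a median of 1234 in GC-WT mice and from 441 to 1451 TPM with a median of 941 in FL-WT mice. It ranged from 573 to 1023 TPM with a median of 703 in GC-KO mice and from 510 to 748 TPM with a median of 592 in FL-KO mice. The WT mice spread far more than the Nrf2-KO mice and overlapped them in both settings. The log2 fold change was largest in GC-KO vs. GC-WT, at -0.57 ± 0.26 (SE) with an adjusted p of 0.0849 in limma, and it was not called in any comparison. After flight it was -0.34 in WT and -0.26 in Nrf2-KO mice, which median-of-ratios scaling turned to 0.05 and 0.19.

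Iglc1, a lambda light chain, averaged 73.6 ± 13 TPM and 63.0 ± 22.1 TPM in GC-WT and FL-WT mice, and 66.6 ± 11.5 TPM and 50.3 ± 19.4 TPM in GC-KO and FL-KO mice (SD, n = 6 each). Its share of Igkc and Iglc1 together was 6.79% ± 2.84, 7.05% ± 3.42, 8.57% ± 2.06 and 7.47% ± 1.94 (SD, n = 6) in the same order. With Iglc2 and Iglc3 counted as well, lambda made up 14.7%, 14.8%, 18.0% and 15.8% in mean. The groups overlapped in these shares. No change of Iglc1 was called, and the log2 fold changes ran from -0.47 to -0.14, with the sign turned by median-of-ratios scaling in 3 comparisons, to between 0.07 and 0.20.

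Jchain, which joins IgM or IgA units, had no change that passed the test in any comparison. It ranged from 37.3 to 117 TPM with a median of 84.5 in GC-WT mice and from 27.1 to 99.5 TPM with a median of 86.5 in FL-WT mice. In GC-KO mice it ranged from 60.4 to 120 TPM with a median of 74.1, and in FL-KO mice from 48.5 to 82.6 TPM with a median of 63.8. The lowest values were those of GC-WT mouse 03 and FL-WT mouse 05, which were also among the lowest of their groups for Ighm and Igkc. The log2 fold changes lay between -0.36 and 0.12, with an SE of 0.28 each, and none passed the test. Median-of-ratios scaling put them between 0.08 and 0.46.

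The balance between the chains was then compared within each mouse, as the log2 ratio of TPM + 1 of a pair of genes, which leaves out most of the effect of scaling. For 11 ratios in 4 comparisons, 44 exact two-sided permutation tests were made and adjusted together. At an adjusted p under 0.1, 1 ratio passed after flight in WT mice, 2 after flight in Nrf2-KO mice, 6 between genotypes on the ground and 4 between genotypes in flight, and in each of these the first gene was higher relative to the second. Apart from Jchain to Igkc in both comparisons of genotype, each was a ratio to Ighm. Such ratios share the lower Ighm and are not independent. Between genotypes on the ground, for example, Ighm changed by -1.25 and Ighg3 by -0.03.

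The ratio of Igkc to Ighm, that is of the kappa chain to the IgM heavy chain, was higher in each comparison. It ranged from 2.18 to 3.27 with a median of 2.40 in GC-WT mice and from 2.65 to 4.29 with a median of 3.15 in FL-WT mice. It ranged from 3.31 to 4.66 with a median of 4.05 in GC-KO mice and from 5.06 to 7.01 with a median of 6.23 in FL-KO mice. Every GC-KO mouse lay above every GC-WT mouse, and every FL-KO mouse lay above every mouse of the 3 other groups. The log2 ratio was higher by 0.68 ± 0.12 (SE) between genotypes on the ground, by 0.91 ± 0.13 between genotypes in flight and by 0.59 ± 0.11 after flight in Nrf2-KO mice (exact permutation test, p = 0.00216 and adjusted p = 0.019 for each, n = 6 against 6). In FL-WT vs. GC-WT it was higher by 0.36 ± 0.14 with overlap (exact permutation test, adjusted p = 0.0952), and 9 of the 12 tests that left out a mouse did not pass, the highest adjusted p being 0.165, with fewer mice in each of these tests.

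The transcripts of the pair differ in length and GC content, as Igkc is 532 bases long with 49.2% GC whereas Ighm is 1698 bases long with 51.8% GC. With the trend of each library's deviations from the gene means on both properties removed, an alternative chosen after the data were seen, the difference of the Igkc to Ighm ratio was 0.45 between genotypes on the ground (exact permutation test, adjusted p = 0.0408), 0.60 between genotypes in flight (adjusted p = 0.0238, exact) and 0.44 after flight in Nrf2-KO mice (adjusted p = 0.0238, exact). After flight in WT mice it was 0.28 and did not pass (adjusted p = 0.114, exact). The 3 differences without overlap thus passed with and without the trend, though the ground groups overlapped once it was removed.

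**Figure D3:**
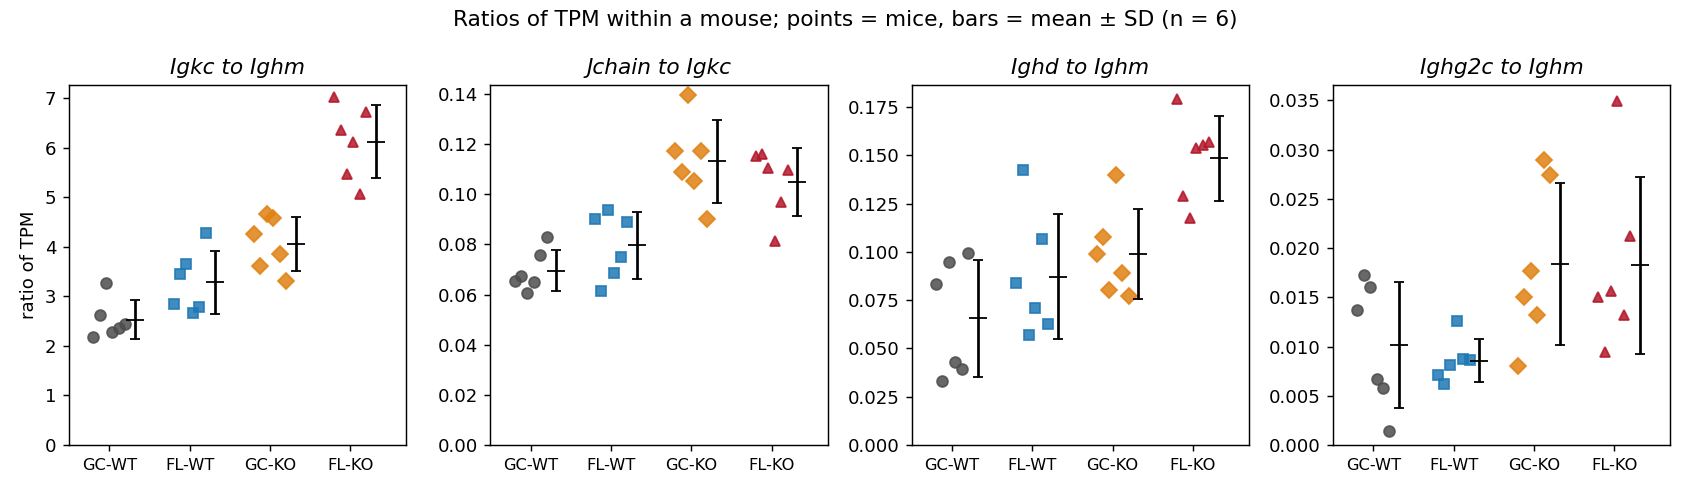
Ratio of TPM of a pair of genes within each mouse, with 1 point for each mouse and the mean and SD of the 6 mice of a group beside them. For Igkc to Ighm the FL-KO mice, at 5.06 to 7.01, lie above all others, and for Jchain to Igkc the GC-KO mice, at 0.0900 to 0.140, lie above all GC-WT mice.

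The ratio of Jchain to Igkc was higher in Nrf2-KO mice. It was 0.0605 to 0.0830 with a median of 0.0665 in GC-WT, 0.0615 to 0.0939 with a median of 0.0819 in FL-WT, 0.0900 to 0.140 with a median of 0.113 in GC-KO and 0.0813 to 0.116 with a median of 0.110 in FL-KO mice. All GC-KO mice lay above all GC-WT mice, while the flight groups overlapped. The log2 ratio was higher by 0.70 ± 0.11 (SE) between genotypes on the ground (exact permutation test, adjusted p = 0.019) and by 0.40 ± 0.13 (SE) in FL-KO vs. FL-WT (exact permutation test, adjusted p = 0.0667). After removal of the GC content and length trend the latter did not pass, at 0.34 (exact permutation test, adjusted p = 0.114). No difference after flight passed, at 0.19 ± 0.12 (SE) in WT mice and -0.10 ± 0.12 (SE) in Nrf2-KO mice.

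Among the heavy chains, Ighd was higher relative to Ighm in FL-KO mice. The ratio was 0.118 to 0.179 in FL-KO mice, 0.0767 to 0.140 in GC-KO mice, 0.0565 to 0.142 in FL-WT mice and 0.0330 to 0.0988 in GC-WT mice. The FL-KO mice overlapped both groups with which they were compared. The log2 ratio was higher by 0.61 ± 0.15 (SE) after flight in Nrf2-KO mice and by 0.85 ± 0.22 (SE) between genotypes in flight (exact permutation test, adjusted p = 0.0357 for each). The latter was 0.62 after removal of the GC content and length trend and did not pass (exact permutation test, adjusted p = 0.11).

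On the ground, the ratio of each of the 4 IgG genes to Ighm passed the test between genotypes, but for all 4 the call depended on a setting. The log2 ratio was higher by 1.11 ± 0.41 for Ighg1, 0.86 ± 0.30 for Ighg2b, 1.03 ± 0.37 for Ighg2c and 1.23 ± 0.33 for Ighg3 (SE), with adjusted p-values of 0.0693, 0.0635, 0.0873 and 0.0357 in exact permutation tests. With 0.1 in place of 1 added to TPM, none of these 4 passed, with adjusted p-values between 0.229 and 0.32 in exact permutation tests. With a mouse left out, Ighg1 did not pass in 10 of 12 tests, Ighg2c in 8 and Ighg2b in 5, while Ighg3 passed in all 12. Median-of-ratios scaling also ended the calls of Ighg1 (adjusted p = 0.147, exact) and Ighg2c (adjusted p = 0.135, exact), the rank sum that of Ighg1 (adjusted p = 0.129, exact), and removal of the GC content and length trend that of Ighg2c (adjusted p = 0.11, exact).

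In flight, Ighg2c was the only IgG gene that passed, with a ratio higher by 1.10 ± 0.20 (SE; exact permutation test, adjusted p = 0.019). Its groups did not overlap on the log2 scale of TPM + 1, but in plain TPM the ratio ran from 0.00942 to 0.0349 in FL-KO mice and from 0.00616 to 0.0126 in FL-WT mice.

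No difference was detected for the remaining ratios. Igha to Ighm differed by -0.35 to 0.26 with SE of 0.39 to 0.72, so a difference between the changes of both genes was not detectable. Iglc1 to Igkc differed by -0.21 to 0.43. Ighm was also set against Cd79a, the signalling chain of the antigen receptor on all B cells, and Jchain against Mzb1, a chaperone of plasma and marginal zone B cells. Ighm to Cd79a differed by -0.36 ± 0.28 (SE) between genotypes on the ground and by 0.02 ± 0.12 in FL-KO vs. GC-KO, and Jchain to Mzb1 by -0.15 to 0.40, none of which passed.

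As shares of the summed TPM of the 7 heavy chain genes, which are given as a description, Ighm made up 86.5% ± 6.45 and 84.3% ± 5.88 in GC-WT and FL-WT mice, and 82.7% ± 3.63 and 80.9% ± 3.92 in GC-KO and FL-KO mice (SD, n = 6). Ighd made up 5.53% ± 2.27, 7.20% ± 2.18, 8.11% ± 1.54 and 12% ± 1.26 in this order. Igha held 5.62% ± 4.44, 6.01% ± 4.26, 5.01% ± 2.55 and 3.33% ± 1.45. The 4 IgG genes together held 2.36% ± 1.02, 2.51% ± 0.592, 4.23% ± 1.17 and 3.77% ± 1.64. The groups overlapped for every share in all 4 comparisons. The Igha share ran from 1.51% in GC-WT mouse 05 to 12.5% in GC-WT mouse 03.

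**Figure D4:**
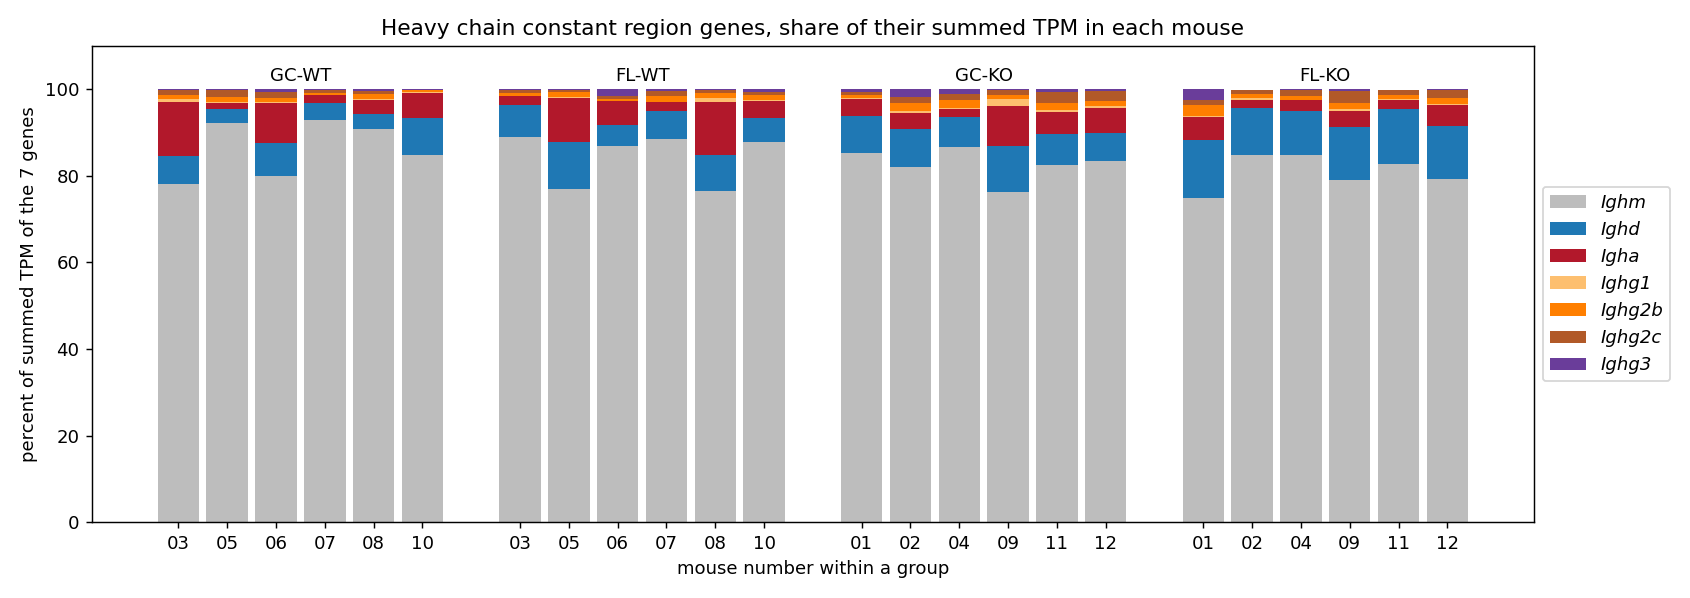
Share of each heavy chain gene in the summed TPM of the 7 genes, in percent, with 1 bar for each mouse and the mouse number within its group below. Ighm fills between 74.9% and 92.9% of every bar, and the part of Ighd is widest in FL-KO mice, where it reaches 13.4%.

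Levels also differed between mice of the same group, and some genes varied together. After the group means were taken off, Pearson's r over the 24 mice was 0.92 between Ighm and Igkc, 0.93 between Igkc and Jchain and 0.82 between Ighm and Jchain on the log2 scale. Iglc1 followed them less, with r of 0.36 to Ighm, 0.30 to Igkc and 0.27 to Jchain. Ighg2c went with Ighm (0.75), Igkc (0.73) and Ighg2b (0.72). Igha stood apart, with r of -0.31 to Ighm, -0.37 to Igkc, -0.51 to Jchain and 0.61 to Ighg1. These values describe 24 points, and each pair of values shares its library, its scaling and its composition.

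**Figure D5:**
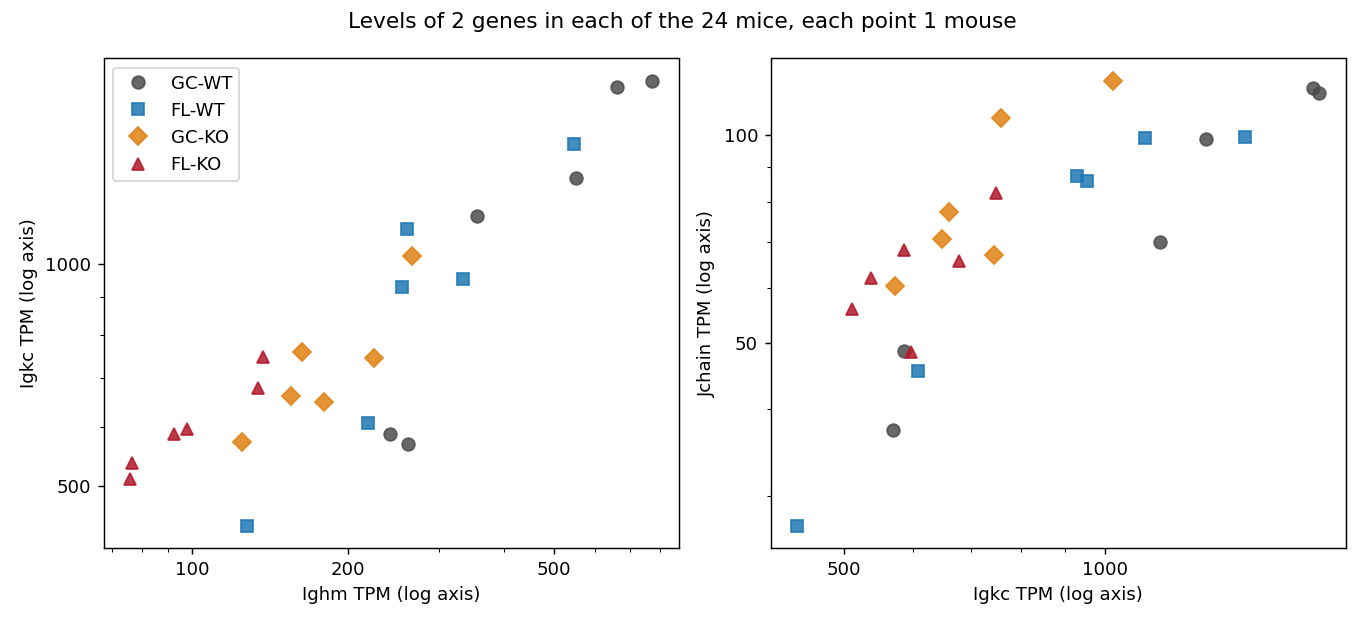
TPM of Igkc against Ighm (left) and of Jchain against Igkc (right) on log axes, with 1 point for each of the 24 mice and a symbol for each group. Within a group both genes rise and fall together between mice. The mean of Ighm is lowest in FL-KO mice, which range from 75.9 to 137 TPM and overlap the GC-KO and FL-WT mice.

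Of 4961 genes whose mean reached 5 TPM, outside the immunoglobulin loci, genes among the 3 most like each member across mice within groups were found by Pearson's r over the 24 libraries. For Ighm they were Herpud1 (0.80), Txndc5 (0.80) and AU020206 (0.79), for Igkc AU020206 (0.71), Ly6a (0.68) and Xbp1 (0.68), and for Jchain Ly6a (0.65), Ccr1 (0.61) and Smim3 (0.61). For Ighd they were Scd1 (0.94), Ablim1 (0.93) and Fcmr (0.90), and for Iglc1 Selenow (0.76), Tssc4 (0.76) and Iah1 (0.75). For Igha they were Ndufa5 (0.65), Selenbp1 (0.64) and Hist1h2bf (0.62). For the IgG genes they were Gm10359 (0.56), Stt3a (0.55) and Rpl28-ps1 (0.53) for Ighg1, Lbp (0.74) and Clptm1 (0.71) for Ighg2b, Lbp (0.78) and Ap1b1 (0.77) for Ighg2c, and Gm15452 (0.57), C1qb (0.54) and Acp5 (0.52) for Ighg3.

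The other genes of the pathway were read from lists of known genes by the same call rule. Of 10 genes of the antigen receptor and its signalling, 0 were called after flight in either genotype in limma, though 7 and 8 had an unadjusted p under 0.05 and lower levels, against 41.7% and 52.2% of all genes. In GC-KO vs. GC-WT 2 were called lower, Plcg2 (-1.34) and Syk (-1.06). Between genotypes in flight 4 were, Plcg2 (-1.58), Syk (-1.22), Cd79a (-1.12) and Pik3ap1 (-1.01), which all carry the signal of the bound receptor (log2 fold changes, background shares as above). The list's median was -0.58 and -0.66 after flight in WT and Nrf2-KO mice, and -0.87 and -0.90 between genotypes on the ground and in flight.

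Of 8 genes of pre-B cells, in which the heavy chain is first expressed, Rag1 (-1.16), an enzyme of variable region joining, and Vpreb3 (-1.28), a protein of pre-B cells, were called lower in FL-WT vs. GC-WT. Of all tested genes 0.938% were called lower there. Vpreb3 (-1.33) was called after flight in Nrf2-KO mice, against 2.13% of tested genes, and Rag1 (-1.05) between genotypes on the ground, against 3.04%. Between genotypes in flight 0 were called in limma, against 8.36%, and 3 had an unadjusted p under 0.05 and lower levels, against 47.3% of all genes. All 8 had an unadjusted p under 0.05 and lower levels in both flight comparisons, against 41.7% and 52.2% of all genes. The list's median was -0.88 and -0.79 there, and -0.37 and -0.22 in the comparisons of genotype. Of 7 genes of mature B cells, Fcmr, the receptor for the constant region of IgM, was called between genotypes on the ground (-1.07) and in flight (-1.43). Of all tested genes 3.04% and 8.36% were called lower in these comparisons. After flight 0 of these 7 were called in limma. At an unadjusted p under 0.05, 0 and 2 were lower in WT and Nrf2-KO mice, against 41.7% and 52.2% of all genes. Between genotypes 4 were lower on the ground and 4 in flight, against 43.4% and 47.3%.

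Of 11 tested genes of plasma cells and secretion, Irf4 was called lower between genotypes on the ground (-1.03), against 3.04% of tested genes. Irf4 is a transcription factor that plasma cells require. In the other comparisons 0 were called in limma, and 6 or 7 had an unadjusted p under 0.05 and lower levels. None of 9 tested genes of class switch recombination was called in limma, and 6 to 9 had an unadjusted p under 0.05 and lower levels. Over all genes this share was 41.7% to 52.2%. Of 6 tested immunoglobulin receptors, 0 were called in limma. At an unadjusted p under 0.05 up to 3 were lower, against the same 41.7% to 52.2% of all genes. At this threshold 1 was higher, Fcgr4 after flight in WT mice (log2 fold change 0.31). Of all tested genes 98.4% had as low or a lower log2 fold change in that comparison. Among other constant region genes Iglc2 and Iglc3 were tested and not called in limma. Iglc2 was lower at an unadjusted p under 0.05 after flight in Nrf2-KO mice, against 52.2% of all genes. Ighe, the constant region of IgE, was at 0.0600 TPM or less.

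Markers of cell types moved with several of these results. The summed TPM of 5 B lineage markers was 153 to 235 and 85.3 to 202 in GC-WT and FL-WT mice, and 106 to 162 and 69.4 to 115 in GC-KO and FL-KO mice, that of 4 plasma cell markers 12.2 to 25.4, 6.88 to 20.1, 16.8 to 22.2 and 9.75 to 14.7, and that of 5 neutrophil markers 27988 to 53264, 42411 to 58804, 40166 to 61979 and 47977 to 64747. The plasma cell sum is mostly Mzb1, which averaged 16.9 TPM in GC-WT and 17.5 TPM in GC-KO mice. Sdc1, the plasma cell surface marker CD138, averaged 2.21 and 1.07 TPM there (log2 fold change -0.63, adjusted p = 0.00104, limma), a change under the 2-fold limit for a call. Of all tested genes 14.6% had as low a log2 fold change in this comparison. Tnfrsf17 averaged 0.355 and 0.245 TPM with overlap and was not tested. The neutrophil sum is mostly S100a8 and S100a9, whose log2 fold changes between genotypes on the ground were 0.48 and 0.45. Other neutrophil markers went the other way there. Ltf was called lower (-1.62, mean of 628 TPM in GC-WT and 218 TPM in GC-KO mice), against 3.04% of tested genes. Ngp changed by -0.71 and Camp by 0.19. The sums over all libraries were 6.76 to 19.1 TPM for 4 T cell markers and 50413 to 147699 TPM for 4 erythroid markers. No marker of these 5 lists was at 0 in all libraries. Their part in the results was not tested, and in bulk RNA fewer B or plasma cells cannot be told apart from less of these RNAs in each cell.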

How the data were processed

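The authors isolated RNA from bone marrow cells frozen in CELLBANKER2, made directional MGIEasy libraries for a DNBSEQ-G400 sequencer, and mapped reads with STAR 2.6.1 to mm10 (GRCm38). TPM are the output of RSEM 1.3.1, both versions per the submitters' processing notes. The table deposited by the authors holds TPM of 54752 genes, with column sums of 999999.5 to 1000001.1. It gives no read counts, so depth and counting error are unknown, and 5 small RNAs held 35.4% to 59.6% of TPM. The authors selected DEGs in iDEP with the thresholds used here.

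Groups and mouse numbers were taken from the labels. Each library is from a different mouse. Genes with TPM above 1 in at least 1 library (12373) entered a linear model of log2(TPM + 1), fitted over all 24 libraries with 1 mean for each group (R 4.3.3, limma 3.58.1). Adjusted p-values are Benjamini-Hochberg values over all tested genes. Calls needed an adjusted p under 0.1 and 2-fold or more. Fold changes on this scale understate those of low genes. Ratios within a mouse were compared with exact two-sided permutation tests over 924 splits. Other steps used Python 3.11.15, pandas 2.3.3, numpy 2.4.6, scipy 1.17.1 and matplotlib 3.10.9. The limma model was tested on simulated data. Of the table's IDs, 54723 were found in GENCODE M21 without the version and 53861 with it, including all 10 members.

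The members and gene lists were chosen with earlier results of these data known. The text names the members, Nfe2l2, Cd79a and Mzb1, the 3 genes most like each member, and up to 4 called genes per list and comparison, and a few genes are not reported here. Iglc2, Iglc3, Ighe, Sdc1, Tnfrsf17, S100a8, S100a9, Ltf, Ngp and Camp were named after their values were seen. The alternatives were a pseudocount of 0.1, filters of none and of 6 libraries above 1 TPM, scaling by median of ratios, quantile normalization, leaving out the 5 small RNAs, removing the GC content and length trend, a variance trend in limma, a model of only the compared groups, other thresholds, a rank sum, the mouse number as a block, Ighe in the heavy chain sum and each library left out.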

Additional observations from a re-analysis of the deposited data

Results flagged for a closer look

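In 88 groups of 6 mice (10 members, Nfe2l2 and 11 ratios in 4 groups), 3 held a mouse far from the other 5, by a gap to the nearest one above Dixon's critical share of the group's range, which chance alone gives in about 1 of 20 groups. Ighg3 in FL-KO mice had a gap of 0.65 of the range, with FL-KO mouse 01 at 2.40 TPM and the next mouse at 0.680 TPM. The log2 ratio of Ighg1 to Ighm in GC-KO mice had a gap of 0.76, with mouse 09 at -5.23 and the next at -6.46. The log2 ratio of Iglc1 to Igkc in GC-KO mice had a gap of 0.65, with mouse 11 at -4.25 and the next at -3.41.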

How the results depend on the processing

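Isotype shares and Nfe2l2 kept their values within the spread under the alternatives run for them. The members called after flight in WT mice went from 0 to 1 with no minimum fold change. After flight in Nrf2-KO mice the 1 call became 3 with a pseudocount of 0.1, 4 with no minimum fold change, and 0 with median-of-ratios scaling, with quantile normalization or with the GC content and length trend removed. Between genotypes on the ground the 2 calls became 0 with median-of-ratios scaling, 1 with quantile normalization or the trend removed, and 4 with no minimum fold change, and in flight the 2 became 1 with median-of-ratios scaling. With a mouse left out, 1 to 2 members were called on the ground.

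The ratios past the test after flight in WT mice went from 1 to 0 with a pseudocount of 0.1, median-of-ratios scaling, an adjusted p under 0.05 or the trend removed (chosen after seeing the data), to 2 with quantile normalization, and to 0 to 2 with a mouse left out. On the ground the 6 between genotypes became 2 with a pseudocount of 0.1, 3 at an adjusted p under 0.05, and 3 to 7 with a mouse left out. In smaller groups the smallest p is itself higher.

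Signs turned only for values that were not called. With median-of-ratios scaling, log2 fold changes after flight in WT mice turned to 0.15 (Ighd), 0.10 (Ighg3), 0.05 (Igkc), 0.10 (Iglc1) and 0.23 (Jchain), and in Nrf2-KO mice to 0.19 (Ighd), 0.19 (Igkc) and 0.08 (Jchain). Between genotypes they turned on the ground to 0.01 (Ighg1), 0.02 (Ighg2c), 0.19 (Ighg3) and 0.20 (Iglc1), in flight to 0.07 (Iglc1) and 0.31 (Jchain), and in the interaction to 0.04 (Ighd). The Ighg3 to Ighm ratio after flight in Nrf2-KO mice turned to -0.18.

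With quantile normalization they turned after flight to 0.03 (Ighd), 0.13 (Ighg3) and 0.01 (Jchain) in WT mice and to 0.14 (Ighd) in Nrf2-KO mice. Between genotypes they turned on the ground to 0.02 (Ighg1), 0.05 (Ighg2c), 0.21 (Ighg3) and 0.03 (Iglc1), and in flight to 0.08 (Ighg2c), 0.02 (Iglc1) and 0.23 (Jchain). The interaction turned to 0.27 (Ighm), 0.10 (Ighd) and 0.03 (Ighg2c). Ratios turned to 0.07 (Jchain to Igkc) and -0.05 (Ighm to Cd79a) after flight in Nrf2-KO mice and to -0.15 (Jchain to Mzb1) on the ground.

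With the GC content and length trend removed they turned to 0.14 (Ighg3) and 0.01 (Jchain) after flight in WT mice, 0.19 (Ighg1) and 0.34 (Ighg3) on the ground, 0.13 (Ighg1) and 0.01 (Ighg2c) in flight, and 0.00 (Ighd) and 0.04 (Ighg2c) in the interaction, and ratios to -0.02 (Ighm to Cd79a, flight in Nrf2-KO mice) and -0.20 (Jchain to Mzb1, ground). With a pseudocount of 0.1, Ighg3 on the ground turned to 0.07, Ighg1 to Ighm to -0.17 and -0.30 after flight in WT and Nrf2-KO mice, and Ighg3 to Ighm to -0.68 in the latter. Without 5 small RNAs the interaction turned to 0.05 (Ighm), 0.18 (Ighd), 0.07 (Ighg2c) and 0.01 (Iglc1). The cause was not tested.

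With a mouse left out, log2 fold changes after flight in WT mice ran from -0.36 to 0.09 (Ighg3) and -0.34 to 0.11 (Jchain). Those between genotypes ran on the ground from -0.59 to 0.05 (Ighg2c), -0.26 to 0.16 (Ighg3) and -0.07 to 0.25 (Jchain), and in flight from -0.35 to 0.02 (Jchain). The interaction ran from -0.36 to 0.06 (Ighm), -0.13 to 0.14 (Ighd), -0.28 to 0.08 (Ighg1), -0.38 to 0.01 (Ighg2b), -0.35 to 0.29 (Ighg2c) and -0.11 to 0.26 (Igkc). Ratios after flight in WT mice ran from -0.04 to 0.60 (Igha to Ighm), -0.00 to 0.60 (Ighg1 to Ighm), -0.04 to 0.31 (Ighg2c to Ighm), -0.17 to 0.24 (Iglc1 to Igkc) and -0.21 to 0.08 (Ighm to Cd79a). They ran in Nrf2-KO mice from -0.20 to 0.31 (Ighg3 to Ighm) and -0.05 to 0.08 (Ighm to Cd79a), and on the ground from -0.05 to 0.59 (Igha to Ighm) and -0.18 to 0.13 (Jchain to Mzb1).

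Flight and ground mice share numbers, but the deviations of same-numbered mice correlated at -0.03 to 0.27, over 0.1 in 6 of 12 pairs, and 3 of 12 ground mice correlated best with their own number, so the numbers were not taken as pairing. With the number as a replicate block, 0 members were called after flight in WT and 1 in Nrf2-KO mice, as without it. Precision rests on 6 mice a group. The depth is unknown, and low IgG values depend on the pseudocount.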
